A study of Mus musculus with 8 samples.

Results

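The sites described here are the genomic intervals that phosphorylated STAT3 held in the peak lists of both STAT3 spliceforms after 30 min of oncostatin M. A site belonged to the set when its chromosome, start and end were identical in the 2 lists. This gave 2278 sites, out of 5338 sites listed for either spliceform at 30 min and 5343 distinct sites of exact position in the whole series. They made up 61.2% of the STAT3α list and 58.5% of the STAT3β list, and are called shared sites below. They were chosen by their listing at 30 min for both spliceforms, so that listing is a description and was not tested.

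The cells were mouse embryonic fibroblasts of genotype STAT3-/- that re-expressed either STAT3alpha or STAT3beta from an inducible construct, with 1 cell line named per spliceform. All groups, the 0 min controls included, were kept in 1 nM 4-hydroxytamoxifen (48 h or longer) to induce the construct and then without serum for 16 h. Human recombinant oncostatin M at 10 ng/mL was then given for 0, 30 or 180 min. DNA bound to STAT3 was recovered with an antibody against the tyrosine-phosphorylated protein and sequenced (ChIP-seq), which gave 6 lists, 1 per spliceform and time. The labels speak of duplicate samples and of merged reads, so no replicate error can be given. The lists give positions on mm9, with no height, fold enrichment or read number, and the depth of the libraries is unknown.

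STAT3 is a latent transcription factor that JAK kinases phosphorylate on tyrosine when a cytokine of the interleukin-6 family, such as oncostatin M, engages its receptor. The phosphorylated protein dimerizes, enters the nucleus and binds palindromic elements of the interferon-gamma-activated sequence type in promoters and enhancers, and dephosphorylation and induced inhibitors end the signal. STAT3α carries a C-terminal transactivation domain, while STAT3β, made by alternative splicing, lacks it and keeps the DNA-binding domain. In fibroblasts oncostatin M is known for acute-phase, chemokine and matrix gene responses. No annotation or sequence of mm9 was used here, so the loci below are given by position on that build, counted from 1, and no gene is named.

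Sites of the 2 lists were either identical or did not overlap. No STAT3α-only site overlapped a STAT3β-only site, as in lists drawn from 1 common set of intervals, so the boundaries hold no measure of how near a site came to being shared. The closest pair of single-list sites lay 23 bp apart, with the STAT3β-only site at chr11:86570924-86571323 and the STAT3α-only site at chr11:86571347-86571746. The next pair, at chr1:138592604-138593003 for STAT3α and chr1:138593057-138593456 for STAT3β, was 53 bp apart. Over the genome 9 STAT3α-only sites had a STAT3β-only site within 200 bp and 12 within 400 bp, which is the width of a regular site. Of the shared sites 2270 were 400 bp wide and 8 were wider, from 720 to 799 bp.

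Shared sites lay on all 20 chromosomes that carried 30 min sites. Chromosome 2 held most (222), followed by chromosome 11 (194) and chromosomes 4 and 5 (161 each), and chromosome X held fewest (44). Per Mb between the first and last 30 min site of a chromosome, the density was highest on chromosome 11 (1.64 shared sites per Mb), chromosome 15 (1.54) and chromosome 17 (1.39). It was lowest on chromosome X (0.276), chromosome 7 (0.516) and chromosome 14 (0.538). The shared part of a chromosome's 30 min sites varied less than the density, from 37.1% on chromosome 19 to 49.2% on chromosome 8, around 42.7% over all chromosomes. The 95% exact binomial interval of a chromosome covered that value on 19 of the 20. The exception was chromosome 8, where 120 of 244 sites were shared (interval 42.7 to 55.6%), with the lower bound just above it. Intervals here and below cover counting over sites alone.

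**Figure D1:**
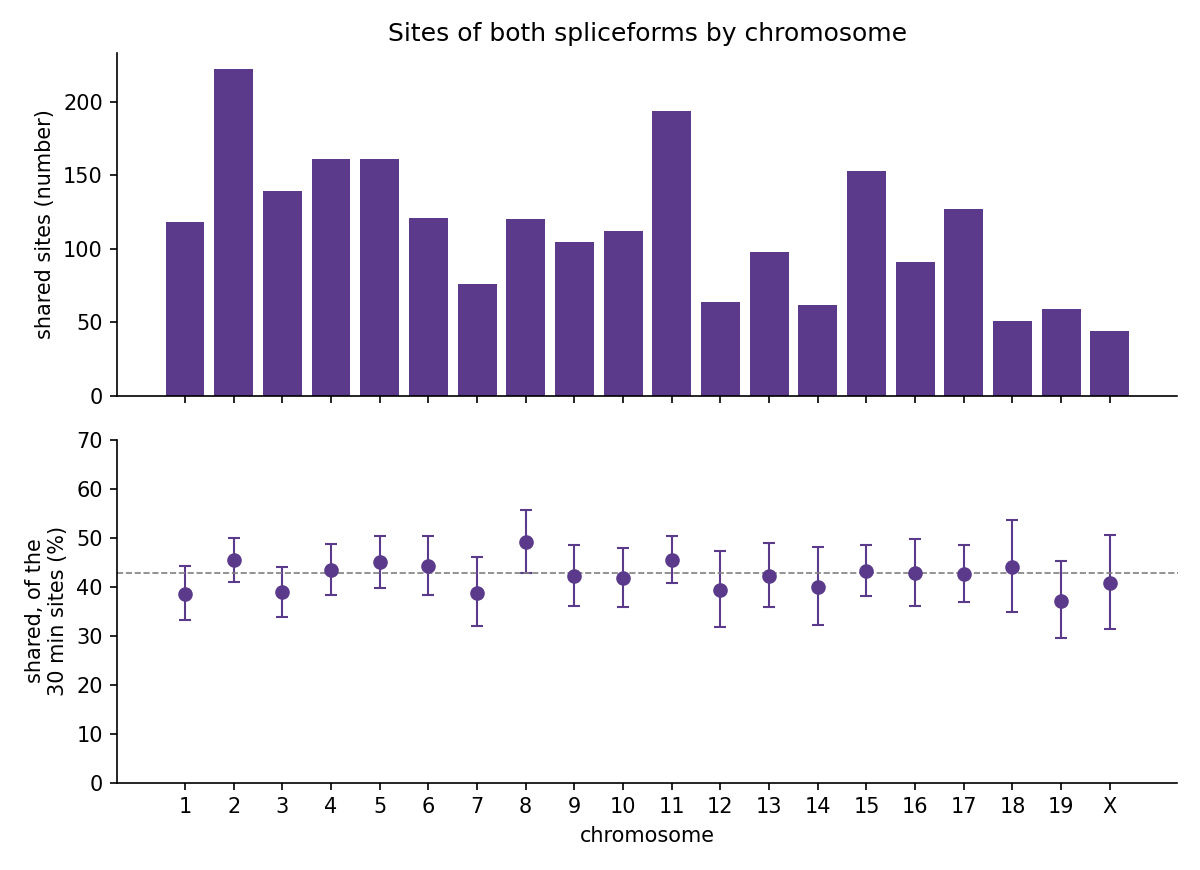
Number of shared sites on each chromosome (upper panel) and the shared part of all 30 min sites there in percent (lower panel). Points are shares, bars are 95% exact binomial intervals and the dashed line marks 42.7%, the share over all chromosomes. Numbers run from 44 on chromosome X to 222 on chromosome 2, while shares stay between 37.1% and 49.2%.

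Spacing was measured between the facing ends of sites. The median distance from a shared site to the nearest other shared site was 119 kb (quartiles 28.5 and 385 kb). Another shared site lay within 10 kb of 321 of them (14.1%, interval 12.7 to 15.6%), within 50 kb of 753 (33.1%) and within 1000 kb of 2062 (90.5%). Of all 30 min sites, 12.1%, 30.2% and 88.2% had a shared site within these distances. For STAT3α-only sites the values were 10.7%, 31.9% and 88.0%, and for STAT3β-only sites 10.5%, 24.6% and 85.2%. Successive shared sites on a chromosome were a median of 329 kb and a mean of 1107 kb apart. Of the 2258 gaps between successive shared sites, 612 exceeded 1000 kb. The longest gap ran over 29.8 Mb of chromosome X, from 100752335 to 130593528, and held 3 single-list sites. The second ran over 20.0 Mb of chromosome 14, from 79465917 to 99498729, and also held 3.

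Against the catalogue of all 30 min sites, shared sites were spaced much like the STAT3α-only sites. The median distance to the nearest other 30 min site was 41.8 kb for shared sites, 40.4 kb for the 1447 STAT3α-only sites and 60.6 kb for the 1613 STAT3β-only sites. A neighbour within 10 kb was present for 25% of shared sites (interval 23.2 to 26.8%), 23.4% of STAT3α-only sites (21.2 to 25.6%) and 21.6% of STAT3β-only sites (19.6 to 23.7%), beside 23.5% of all 30 min sites. Within 50 kb the values were 53.6% (51.5 to 55.6%), 55.0% (52.4 to 57.6%) and 45.8% (43.4 to 48.3%), beside 51.6% of all. At 50 kb the interval of the STAT3β-only sites lay below the other two, and that of the STAT3α-only sites overlapped that of the shared sites. Neighbouring sites are not independent, so these differences were not tested.

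**Figure D2:**
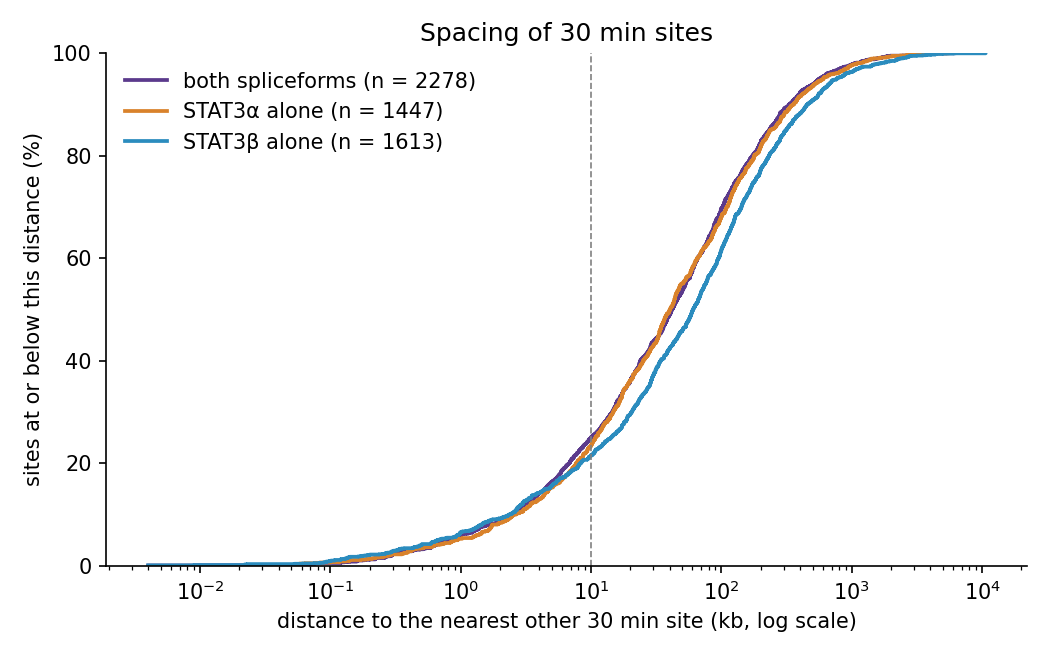
Cumulative share of sites (percent) against the distance to the nearest other 30 min site in kb, on a log axis. Purple is shared sites, orange STAT3α-only and blue STAT3β-only sites, and the dashed line marks 10 kb. The purple and orange curves run together, with medians of 41.8 and 40.4 kb, and the blue curve lies to their right, with a median of 60.6 kb.

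The nearest neighbours of shared sites were often shared too. Of the 569 shared sites with a 30 min site within 10 kb, the nearest one was shared for 281 (49.4%, interval 45.2 to 53.6%), STAT3α-only for 132 (23.2%) and STAT3β-only for 156 (27.4%). Among all other sites of the catalogue 42.7% were shared, 27.1% STAT3α-only and 30.2% STAT3β-only. At a distance of up to 1 kb the shared part was 40.2% (53 of 132, interval 31.7 to 49.0%), and this interval covered the 42.7% of the catalogue. The share of sites that were shared was 41.9% (40.3 to 43.4%) among sites with no 30 min neighbour within 10 kb. It was 43.7% in runs of 2 sites, 52.0% (45.6 to 58.4%) in runs of 3 and 43.5% (31.6 to 56.0%) in runs of 4 to 6. These values come from the lists that defined the set and are a description.

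The closest shared sites were 70 bp apart, at chr2:125748756-125749155 and chr2:125749226-125749625. Next came a pair 81 bp apart on chromosome 8, with starts at 114167712 and 114168193. A pair on chromosome 2 with starts at 116843573 and 116844132 and a pair on chromosome 11 with starts at 53576288 and 53576847 were each separated by 159 bp. The fifth pair, on chromosome 11 with starts at 87994011 and 87994633, was 222 bp apart. None of these 10 sites was in a 0 or 180 min list at an exact position. The sonicated DNA fragments were 200 to 500 bp long, per the labels' protocols, and their part in such pairs was not tested.

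The most isolated shared site, at chrX:53851099-53851498, was 11.9 Mb from the nearest shared site and 3.38 Mb from any 30 min site. The second, at chr7:4971748-4972147, was 11.6 Mb from a shared site but only 0.105 Mb from a single-list site. Sites at chr4:4107455-4107854 and chr3:10125893-10126292 were 10.7 and 9.73 Mb from a shared site, with single-list sites 0.0279 and 0.374 Mb away. The fifth lay at chr7:63217588-63217987, 8.85 Mb from a shared and 2.84 Mb from any 30 min site. None of the 5 was listed at 0 or 180 min.

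Clusters were defined as runs of shared sites with facing ends at most 10 kb apart. There were 154 clusters with 321 shared sites, and the other 1957 shared sites stood alone. Clusters were small, with 142 of 2 sites, 11 of 3 and 1 of 4. They spanned from 0.870 to 20.5 kb, with a median of 5.97 kb. In 10 of the 12 clusters with 3 or more shared sites, no single-list site lay inside or within 10 kb. No such count is given here for the clusters of 2, so there is no comparison for it. A site of a 180 min list was present in 4 of the 12, beside 14 of all 154 clusters. Clusters with more sites have more that can be listed.

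The cluster of 4 was at chr11:117823497-117841151, with sites starting at 117823497, 117824769, 117830560 and 117840752. The third of these, at chr11:117830560-117830959, was in both 180 min lists, the second in that of STAT3β, and the outer sites in neither. A cluster of 3 followed 10.2 kb downstream at chr11:117851378-117856935, and none of its sites was listed at 180 min. With gaps of up to 50 kb allowed, a grouping chosen for description after the positions were seen, these 7 sites and 1 more formed a stretch of 8 shared sites over 61.5 kb, from 117795429 to 117856935, with 1 single-list site among them. The only other stretch of 8 shared sites under that grouping was also on chromosome 11, at chr11:51665693-51817970. It spanned 152 kb with 2 single-list sites inside, and none of its shared sites was in a 180 min list. The stretches of 7 were at chr2:167586158-167660483, with 1 site in both 180 min lists, and at chr12:70472536-70640702, with none.

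Of the remaining clusters among the first 10 by number of sites and then by compactness, those on chromosomes 2, 7 and 15 held a site listed at 180 min. The cluster at chr2:164258134-164268996 began with a site in both 180 min lists, and the other two of its sites were in neither. At chr7:20401600-20412531 the first site was likewise in both 180 min lists. This cluster was mixed, with 2 STAT3α-only sites between its shared sites and another within 10 kb. The cluster at chr15:76027049-76038042 had its second site, chr15:76028958-76029357, in the STAT3β 180 min list, and 1 STAT3α-only and 2 STAT3β-only sites lay inside it or within 10 kb. With its single-list neighbours counted it was a run of 6 sites, as was the one on chromosome 7, and no run of 30 min sites was longer. The clusters at chr9:96682469-96690717, chr10:128360192-128368866, chr16:91362920-91373518, chr8:13517557-13529554 and chr6:91142856-91157885 held 3 shared sites each, none of them listed at 180 min.

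**Figure D3:**
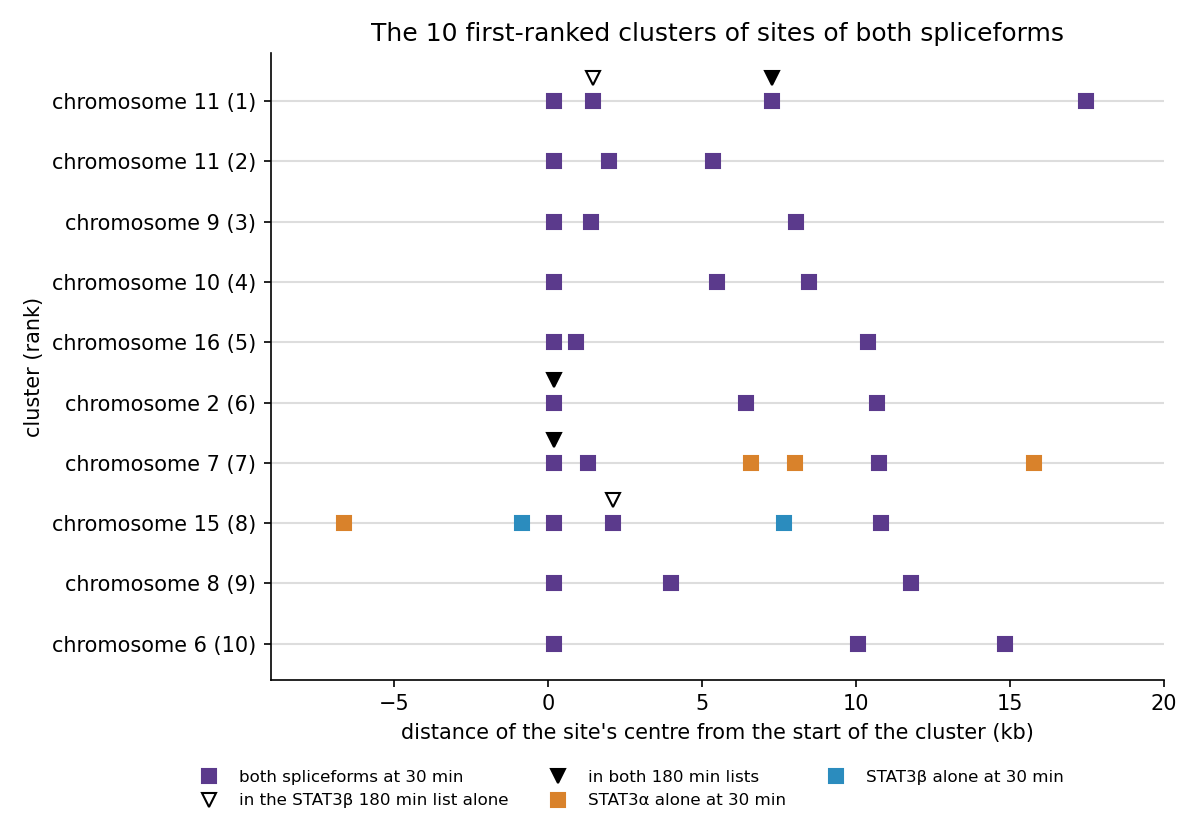
The 10 clusters with most shared sites, 1 per row, with the distance of each site's centre from the start of the cluster in kb. Squares are 30 min sites (purple shared, orange STAT3α-only, blue STAT3β-only), filled triangles mark sites in both 180 min lists and open triangles sites in the STAT3β 180 min list alone. The first row has 4 shared sites, of which 2 are marked, and single-list sites appear only in the rows of chromosomes 7 and 15.

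The lists at other times were not used to choose the set, and most shared sites were absent from them. Of the 2278 sites, 2156 (94.6%) were in no 0 or 180 min list at an exact position. Of all 2278, however, 703 lie at 100 Mb or above, where 0 min positions are rounded. At 180 min, 35 shared sites were in the STAT3α list (1.54%, interval 1.07 to 2.13%), beside 0.693% of all 30 min sites. In the STAT3β list there were 112 (4.92%, 4.07 to 5.89%), beside 2.21% of all. Both 180 min lists held 27 of them (1.19%, 0.783 to 1.72%), beside 0.506% of all, and either list held 120 (5.27%, 4.39 to 6.27%), beside 2.40% of all. Since the lists of all 30 min sites include the shared ones, the single-list sites are the more direct comparison. None of the 1447 STAT3α-only sites was in either 180 min list, which allows a share of up to 0.255%. Of the 1613 STAT3β-only sites, 8 were (0.496%, 0.214 to 0.975%), and these intervals lay below that of the shared sites. With 1 list per group the comparison is between these lists, and no test across cultures was possible.

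**Figure D4:**
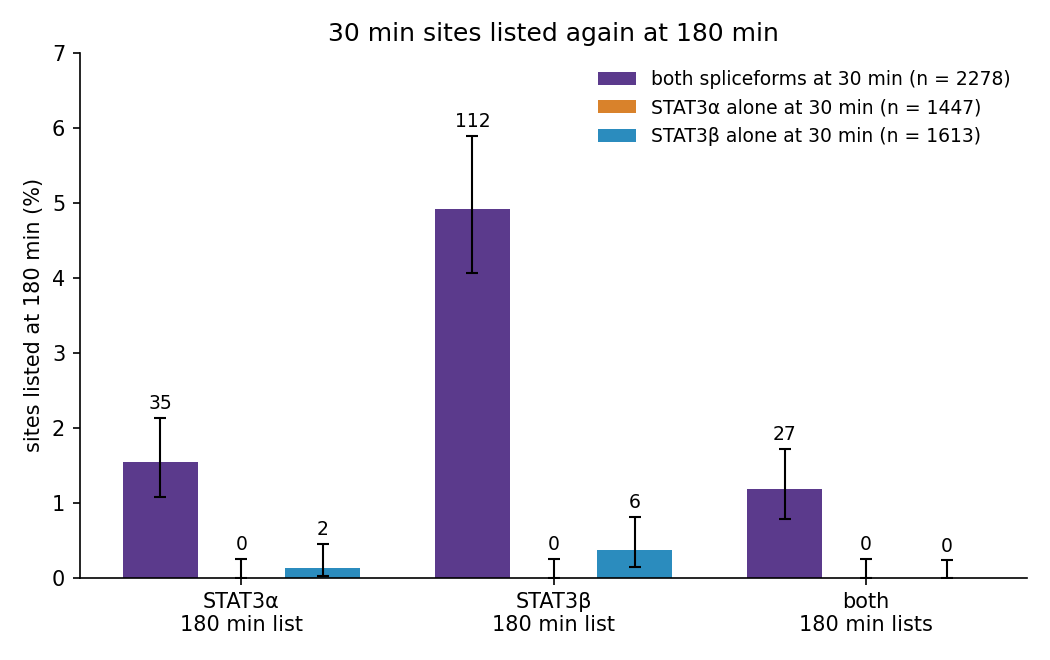
Share of 30 min sites (percent) found in the STAT3α, the STAT3β and both 180 min lists, for shared (purple), STAT3α-only (orange) and STAT3β-only (blue) sites. Bars are shares, error bars 95% exact binomial intervals over sites, and the number above each is the count of listed sites. Shared sites are highest in each list, with 35, 112 and 27 sites.

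The 13 late sites outside the set were few and none was a STAT3α-only site. There were 8 STAT3β-only sites, of which 6 were in the STAT3β and 2 in the STAT3α 180 min list. The latter were at chr7:6362777-6363176 and chr8:14072529-14072928. Another 5 late sites were in neither 30 min list. Of these, chr2:33946114-33946513 and chr15:84659817-84660216 were in a 0 min list, as was the STAT3β-only site at chr8:14072529-14072928. The nearest shared site was between 103 kb, for chr15:76352517-76352916, and 1957 kb, for chr10:89207427-89207826, from these 13. Such distances were common, with a median of 172 kb over all STAT3β-only sites. A shared site lay within 100 kb of 37.3% of the STAT3β-only sites and 43.0% of all 30 min sites. Shared sites made up 90.2% of the 133 sites of either 180 min list (interval 83.9 to 94.7%).

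Shared sites of the STAT3α 180 min list were mostly a part of those of STAT3β. The STAT3β list alone held 85 (3.73%, beside 1.70% of all 30 min sites) and the STAT3α list alone 8 (0.351%, beside 0.187% of all). The 27 sites common to both were 77.1% of the 35 in the STAT3α list and 24.1% of the 112 in the STAT3β list. On each of the 20 chromosomes more shared sites were in the STAT3β than in the STAT3α 180 min list, and chromosomes 10 and X had none for STAT3α against 7 and 2 for STAT3β. For STAT3β the share listed at 180 min ran from 1.69% on chromosome 1 (2 of 118, interval 0.206 to 5.99%) to 7.73% on chromosome 11 (15 of 194, 4.39 to 12.4%). Chromosomes 16, 15 and 17 followed with 7.69%, 7.19% and 7.09%, and the intervals of these and of chromosome 1 overlapped. The STAT3β 180 min list was the longer one, with 120 peaks against 40. In these counts the spliceform cannot be told apart from the cell line or from the depth of the library.

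Clustered and lone shared sites were listed at 180 min at similar rates. In the STAT3α 180 min list were 5 of 321 clustered shared sites (1.56%, interval 0.508 to 3.60%) and 30 of 1957 lone ones (1.53%, 1.04 to 2.18%). For STAT3β they numbered 16 of 321 (4.98%, 2.88 to 7.97%) and 96 of 1957 (4.91%, 3.99 to 5.96%). The 37 sites in clusters of 3 or 4 had 3 in the STAT3α list (8.11%, 1.70 to 21.9%) and 5 in the STAT3β list (13.5%, 4.54 to 28.8%), and both intervals overlapped those of the lone sites. In both 180 min lists were 3 of these 37 (8.11%, 1.70 to 21.9%) and 22 of the 1957 lone sites (1.12%, 0.706 to 1.70%), with the interval of the former starting just above the end of the latter. These 3 sites are few, and they lie in 3 different clusters. By distance to any 30 min site, the share in either 180 min list was 5.27% up to 10 kb, 4.30% from 10 to 50 kb, 5.78% from 50 to 200 kb and 6.0% beyond 200 kb, and the 4 intervals overlapped. Of the 154 clusters, 142 of them pairs, 14 held a late site, and 2 of these held more than 1, the cluster of 4 on chromosome 11 and a pair at chr8:87500257-87502917.

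Each of the 27 sites in both 180 min lists was a regular interval, and they were spread over 15 chromosomes. The median distance to the nearest shared site was 133 kb, beside 118 kb for the 2158 shared sites of no 180 min list, 128 kb for the 85 in the STAT3β 180 min list alone and 153 kb for the 8 in that of STAT3α alone. Another shared site lay within 10 kb of 5 of the 27 and within 50 kb of 9, beside 14.1% and 33.1% of all shared sites. The closest neighbours were those of chr7:20401600-20401999 (0.704 kb) and chr8:87500257-87500656 (1.86 kb). Those of chr11:117830560-117830959 (5.39 kb), chr2:164258134-164258533 (5.81 kb) and chr6:108609884-108610283 (8.05 kb) followed. Between 10 and 50 kb were the neighbours of chr2:167602937-167603336, chr15:38400117-38400516, chr17:80115076-80115475 and chr11:100800888-100801287. The other 18 had none within 50 kb. Among them were chr5:122608016-122608415, chr6:48791239-48791638, chr13:113253967-113254366, chr16:24393710-24394109 and chr17:47874911-47875310, and the farthest was chr12:73186758-73187157, at 1704 kb. A second shared site of a 180 min list lay within 50 kb of 2 of the 27, those on chromosome 8 and at chr11:117830560-117830959.

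None of the 8 shared sites listed at 180 min for STAT3α alone was in a cluster, like 1957 of all 2278 shared sites. These 8 sites lay on 7 chromosomes. They were at chr4:132651046-132651445, chr5:32435435-32435834, chr9:21754768-21755167, chr11:48807593-48807992, chr11:98812629-98813028, chr14:45625464-45625863, chr15:72398960-72399359 and chr18:38039758-38040157. The nearest shared site was between 23.5 and 499 kb away. Those on chromosomes 9 and 15 were also in the STAT3α 0 min list, and the one on chromosome 9 in that of STAT3β too.

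Without oncostatin M, 8 shared sites were already listed at an exact position. There were 4 in the STAT3α list (0.176%, interval 0.0479 to 0.449%) and 7 in the STAT3β list (0.307%, 0.124 to 0.632%), with 3 in both (0.132%). Of all 30 min sites 0.0937% were in the STAT3α, 0.131% in the STAT3β, 0.0562% in both and 0.169% in either 0 min list. These shares count sites at 100 Mb or above, 703 of the 2278 shared ones, where 0 min positions are rounded. The shares may therefore be too low. No STAT3α-only site and 1 STAT3β-only site was in a 0 min list. The 8 sites did not share a time course. The site at chr19:4988979-4989378 was in all 6 lists, and those at chr8:87500257-87500656, chr15:6824175-6824574 and chr15:38400117-38400516 were missing from the STAT3α 0 min list alone. By contrast, chr11:24999947-25000346 was in both 0 min lists and in neither 180 min list, and chr17:4626165-4626564 was in the STAT3β 0 min list and no 180 min list. The sites at chr9:21754768-21755167 and chr15:72398960-72399359 were at 180 min in the STAT3α list alone.

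A larger part of the shared sites listed at 0 min than of the others was listed at 180 min. Positions of 100 Mb and more are rounded in the 0 min lists, so the comparison was limited to the 1575 shared sites below 100 Mb, which include all 8. Either 180 min list held 6 of the 8 (75%, interval 34.9 to 96.8%), against 76 of the 1567 other shared sites (4.85%, 3.84 to 6.03%). In the STAT3α list the counts were 6 of 8 and 15 of 1567 (0.957%, 0.537 to 1.57%). In the STAT3β list they were 4 of 8 (50.0%, 15.7 to 84.3%) and 71 of 1567 (4.53%, 3.56 to 5.68%). The intervals did not overlap in any of these comparisons, which treat sites as independent and were made with earlier results of these data known. Listing at both times was not particular to shared sites. At exact 0 min positions, 1 STAT3β-only site and 2 sites of neither 30 min list were also listed at 180 min. These were all the 0 min sites of exact position outside the set. Of the 8, 1 site, on chromosome 8, had another shared site within 10 kb (1.86 kb away), beside 14.1% of all shared sites. The sites on chromosomes 11 and 19 and at chr15:72398960-72399359 were 1844, 484 and 499 kb from the nearest shared site.

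**Figure D5:**
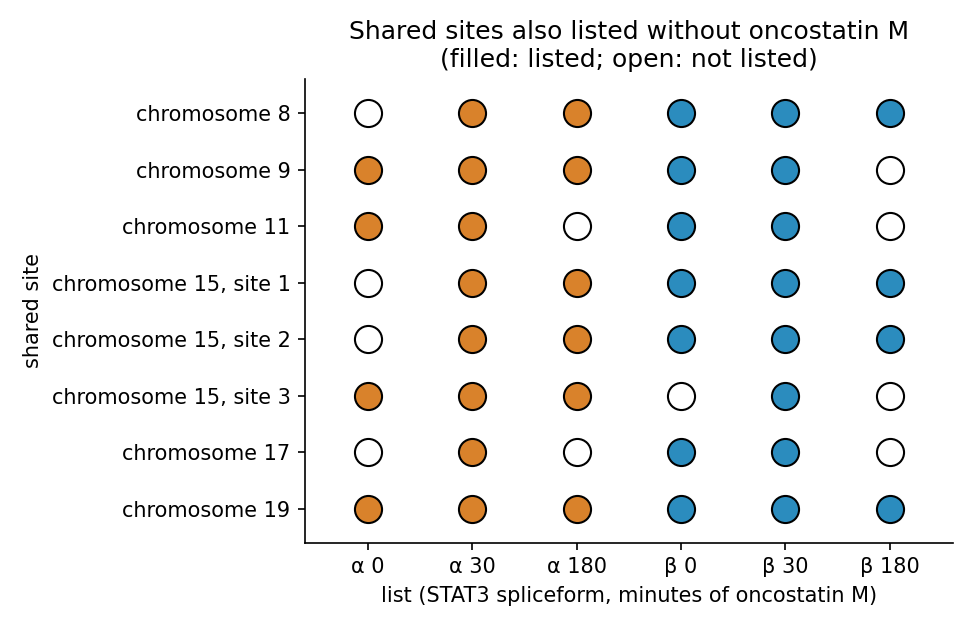
The 8 shared sites listed at 0 min (rows, in genome order) across the 6 lists (columns: spliceform and minutes of oncostatin M). Filled circles are listed, open circles not listed, orange for STAT3α and blue for STAT3β. Only the site on chromosome 19 is filled in all 6 columns, and the sites on chromosomes 11 and 17 are open in both 180 min columns.

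The 0 min lists held 6 further peaks whose positions of 100 Mb and more had been rounded to the nearest Mb, so their identity is unknown. Every one of these 6 windows held at least 1 shared site, beside 1062 of the 2559 windows of 1 Mb between the first and last 30 min sites of the chromosomes (41.5%). The 2 sets of windows are not alike. The 6 were picked for holding a 0 min peak, while the 2559 include windows with no 30 min site. A shared site listed at 180 min was present in 4 of the 6, beside 111 of the 1062 windows with a shared site (10.5%). It was 4.07% for the 492 windows with 1 shared site and 30.6% for the 85 windows with 5 or more (26 windows, interval 21.0 to 41.5%). Of the 4 windows, 3 held 5 or more. For STAT3β the window around 118 Mb on chromosome 11 held 13 shared sites, the cluster of 4 among them, with 1 in the STAT3α and 2 in the STAT3β 180 min list. The STAT3β windows around 101 Mb on chromosome 11 and 133 Mb on chromosome 4 held 5 and 6 shared sites, each with 1 in both 180 min lists, and that around 149 Mb on chromosome 4 held 2, with 1 in the STAT3β list. The STAT3α windows around 105 Mb on chromosome 14 and 158 Mb on chromosome 2 held 1 and 2 shared sites, none listed at 180 min.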

How the data were processed

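Tools named in the submitters' processing notes are MACS2 2.1.1.20160309, HOMER 4.9, STAR 2.5.0a, Trim Galore 0.4.2 and bedtools, with the build mm9. The sources used here do not state what each tool did, how peaks were thresholded or whether the 2 input samples served as background. Each deposited list holds a name and an interval per peak, from merged reads, with no score, so peaks could not be ranked by strength and no depth is known. Lists were grouped by sample title. Sites were matched by identical coordinates, spacing was taken between facing ends, and clusters joined shared sites at most 10 kb apart. The spacing functions were tested on simulated data. Shares have 95% exact (Clopper-Pearson) binomial intervals. With 1 list per group no test was run. Planned values on genes, transcription starts and motifs needed an annotation or sequence of mm9 and were not run. The named sites were the first 10 clusters by number of shared sites and then span, the 5 closest pairs, the 5 most isolated sites, and the shared sites in a 0 min list or both 180 min lists. Of the sites in both 180 min lists, those with no shared site within 50 kb are named only in part. Other sites named were chosen after their values were seen. Members, clusters and lists were chosen with earlier results of these data known. Calculations used Python 3.11.15, numpy 2.4.6, scipy 1.17.1 and matplotlib 3.10.9.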

Additional observations from a re-analysis of the deposited data

How the results depend on the processing

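Of 40 alternative values for 16 results, 32 stayed within the interval of the reported share or within 1.5 times the reported count, and 8 moved, all of them by a wider or narrower distance or a wider choice of neighbours. The 32 include checks that could not, or could hardly, move a value. Sites of the 30 min lists were identical or did not overlap, so matching by overlap or by centres gave the same 2278 sites. Matching by overlap also left the 180 min counts unchanged. The use of sites of 400 bp alone removed 8 shared sites, none of them listed at 0 or 180 min. The share of shared sites with another shared site nearby went from 14.1% at 10 kb to 4.04% at 2 kb, 7.46% at 5 kb and 33.1% at 50 kb, and to 25.0% when the neighbour could be any 30 min site. The number of clusters went from 154 to 84 at 5 kb and 306 at 50 kb, and the shared sites in them from 321 to 170 and 753. Without the sites in the same Mb as a 0 min position, the share listed at 180 min was 1.13% for STAT3α and 4.51% for STAT3β. Counting each rounded 0 min position as 1 shared site gave 6 sites for STAT3α and 11 for STAT3β at 0 min. The use of sites of 400 bp alone and the inclusion of sites at 100 Mb and above beside those listed at 0 min were chosen after seeing the data. No paired analysis was possible because each group has 1 list.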
